A study of Mus musculus with 12 samples.

Results

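The genes described here make, remodel or carry phosphatidylcholine, the most abundant phospholipid of liver membranes. They are Pctp, Pemt, Chka, Chkb, Pcyt1a, Pcyt2, Cept1, Lpcat1, Lpcat3 and Etnk1. All probe sets that the platform annotation assigns to these symbols alone were taken, which gave 24 probe sets, of 45101 on the array, for 10 genes, of 13598 genes tested. The list was drawn up with the log2 values of all 4 groups in view. The members' differences between these groups are therefore given as a description, with their errors and without p-values.

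Livers of 12 male mice aged 6 to 12 weeks were hybridised to Affymetrix arrays, 1 array per mouse and 3 mice per group. PPARα-null mice on bezafibrate carried the 129S4SvJae-PPARalphatm1Gonz/J allele from a line crossed with Jcl:ICR. Clk/Clk mice on bezafibrate were homozygous for the Clock mutation on Jcl:ICR, and wild-type mice on bezafibrate and untreated wild-type mice were Jcl:ICR. The 3 treated groups ate chow with 0.5% (w/w) bezafibrate, an agonist of the PPAR nuclear receptors, for 5 days, and the untreated group ate plain chow. All mice lived in a 12 h light and 12 h dark cycle, and livers were frozen at ZT14, which is 14 h after lights-on. The study asked which PPARα-regulated genes depend on CLOCK. No mutant was left untreated, so what a genotype does by itself cannot be told apart from how it alters the drug response. In the nulls, the receptor's loss and the mixed strain background cannot be told apart.

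Liver cells make phosphatidylcholine by 2 routes. In the CDP-choline route, choline is phosphorylated by a choline kinase, activated with CTP by a nucleotide transferase and joined to diacylglycerol. In the second route, PEMT adds methyl groups from S-adenosylmethionine to phosphatidylethanolamine, which comes in part from a parallel CDP-ethanolamine route. Acyltransferases then exchange the fatty acids of the finished lipid, and PCTP, a START-domain protein, binds single phosphatidylcholine molecules and carries them between membranes.

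Promoter sequence is shown for the members whose levels differed most between groups (Pctp, Chkb, Lpcat3 and Chka). Each is the 250 bases before the RefSeq gene start in GRCm38.p6, written 5′ to 3′ on the gene's strand. Capitals mark GGTCA, the core of a nuclear receptor recognition motif, and CCAAT, on either strand. These 2 short motifs were chosen for display after the sequences had been read. Pctp lies on the minus strand, with this window at chr11:90002895-90003144, Chkb on the minus strand at chr15:89429928-89430177, Lpcat3 on the plus strand at chr6:124662854-124663103, and Chka on the plus strand at chr19:3851523-3851772.
Pctp: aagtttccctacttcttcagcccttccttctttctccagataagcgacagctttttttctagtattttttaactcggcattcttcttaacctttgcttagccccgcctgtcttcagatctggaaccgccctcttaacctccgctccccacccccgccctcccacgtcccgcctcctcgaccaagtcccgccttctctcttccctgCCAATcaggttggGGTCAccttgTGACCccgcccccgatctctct
Chkb: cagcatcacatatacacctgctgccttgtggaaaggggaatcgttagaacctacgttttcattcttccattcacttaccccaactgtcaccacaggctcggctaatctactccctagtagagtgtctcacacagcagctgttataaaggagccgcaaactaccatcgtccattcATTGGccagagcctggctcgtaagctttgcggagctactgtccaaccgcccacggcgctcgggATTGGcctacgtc
Lpcat3: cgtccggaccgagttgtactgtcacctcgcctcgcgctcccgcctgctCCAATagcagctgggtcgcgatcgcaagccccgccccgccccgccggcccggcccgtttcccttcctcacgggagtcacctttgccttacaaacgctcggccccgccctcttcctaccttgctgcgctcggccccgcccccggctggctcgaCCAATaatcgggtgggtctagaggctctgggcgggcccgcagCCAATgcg
Chka: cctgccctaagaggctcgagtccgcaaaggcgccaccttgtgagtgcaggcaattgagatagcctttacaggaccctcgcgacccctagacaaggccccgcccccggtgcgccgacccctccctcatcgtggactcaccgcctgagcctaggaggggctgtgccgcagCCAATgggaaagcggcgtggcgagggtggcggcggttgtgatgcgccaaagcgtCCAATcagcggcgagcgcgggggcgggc

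RefSeq entries were matched for 9 of the 10 members, all except Pcyt2, with 14 start sites in all. The Pctp window holds 2 GGTCA cores facing each other close to the start, and 1 CCAAT. Chkb, Lpcat3 and Chka have CCAAT at 2, 3 and 2 places and no GGTCA. Both motifs were searched on both strands. GGTCA is found in 4 of the 14 member windows and in 35.2% of the 32851 promoter windows of that length, and CCAAT in 5 of 14 and 33.8%. Some windows of Pcyt1a and of Cept1 overlap, so the 14 are not separate promoters. The windows with GGTCA belong to Pctp, Pemt and Pcyt1a. The longer motif AGGTCA (14% of all windows), the spaced pair AGGTCANAGGTCA (0.0335%), its looser form AGGNCANAGGNCA (0.338%) and the E-box CACGTG (6.02%) are in none of the 14. AGGTCA contains GGTCA, and the looser pair contains the strict one. A match is a run of letters and not a site, and 250 bases leave out most regulatory sequence.

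The arrays were even: array medians lay between 5.45 and 5.50 on the log2 scale, and pairs within a group correlated at 0.993 to 0.996 across probe sets. Ppara signal on its brightest probe set averaged 9.88 in nulls, 10.37 in Clk/Clk, 10.78 in treated wild type and 11.56 in untreated wild type. Where that probe set lies relative to the deleted part was not established here, so it does not check the null label. Clock signal averaged 7.82, 9.25, 8.17 and 7.81 in the same 4 groups. All 8 hepatocyte markers passed the filter on low values, and the summed linear signal of the list ran from 122430.3 to 131561 in nulls, 124097 to 127970 in Clk/Clk, 110862 to 117273 in treated wild type and 138245 to 140745 in untreated wild type. In whole liver, fewer cells of a type and less RNA per cell cannot be told apart.

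Across the members, bezafibrate in wild type was accompanied by large rises in the carrier Pctp, the kinase Chkb and the acyltransferase Lpcat3. A gene was called when limma's Benjamini-Hochberg adjusted p over all genes was under 0.05 and the difference was at least 1.5-fold. With the drug in wild type, 3 of 10 members were called higher and 0 lower, against 12.8% and 7.77% of all genes tested. In nulls relative to treated wild type, 0 were called higher and 4 lower (Pctp, Chkb, Lpcat3 and Chka), against 5.35% and 8.09% of all genes. In Clk/Clk relative to treated wild type, 1 was called higher (Chka) and 0 lower, against 2.64% and 6.49%. The members were chosen on these values, and nothing is read from these shares. The median member difference was 0.12 log2 units for the drug, -0.34 for the nulls and 0.01 for Clk/Clk, and the median over all genes was 0.01, 0.01 and 0.02.

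**Figure D1:**
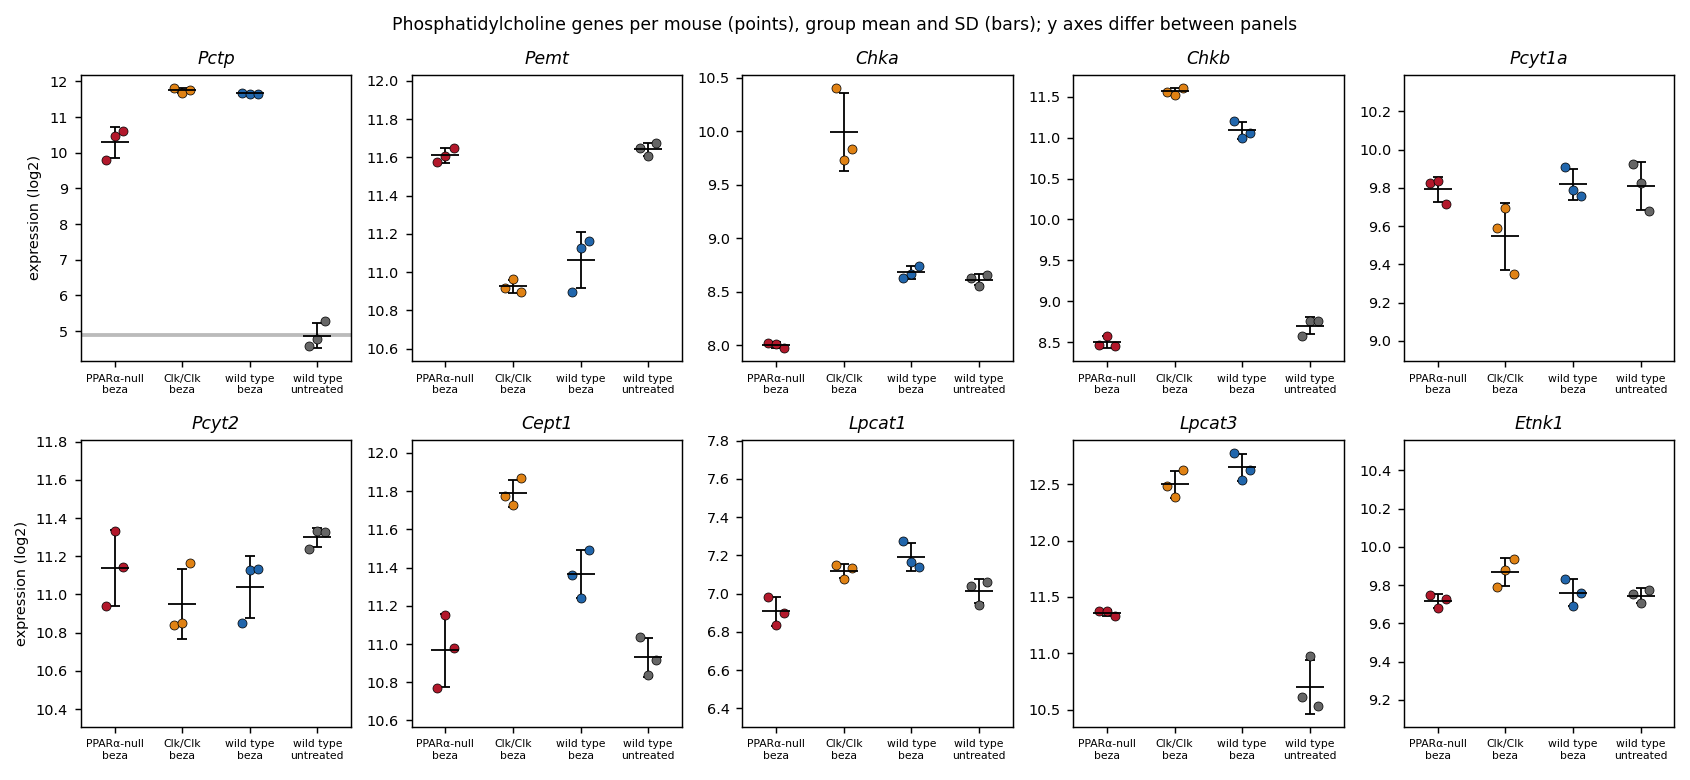
Log2 expression of the 10 members in each mouse (points) with the group mean (line), for PPARα-null, Clk/Clk and wild-type mice on bezafibrate and untreated wild-type mice, 3 mice per group. Each panel has its own y axis, and the grey band in the Pctp panel is the filter level. The untreated mice lie near the band, on either side of it.

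Pctp had the widest range of any member. Its brighter probe set (1420984_at) read 9.80, 10.47 and 10.60 in nulls, 11.82, 11.67 and 11.75 in Clk/Clk, 11.68, 11.65 and 11.65 in treated wild type, and 4.59, 4.77 and 5.28 in untreated wild type. The untreated mice lay near the level of the low-value filter (4.87 to 4.92), on either side of it. The nulls stood between untreated and treated wild type without overlapping either, and Clk/Clk overlapped treated wild type. The drug difference in wild type was 6.78 (SE 0.20), or 110-fold, and since the untreated signal is near background that fold is not exact. Relative to treated wild type, Pctp fell by 1.37 in nulls (SE 0.20, 2.59-fold) and differed by 0.09 in Clk/Clk (SE 0.20), where it was not called.

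Pctp was also higher in nulls on the drug than in untreated wild type, groups that differ in genotype, strain background and drug together. The difference on 1420984_at was 5.41 (SE 0.20, 42.5-fold), and this fold too is not exact, because the untreated signal is near background. The 3 nulls varied more (SD 0.43) than the treated wild type (SD 0.015), and null mouse 1 was the lowest of all treated mice. The second Pctp probe set (1420983_at) read 7.64, 7.74 and 8.07 in nulls, 9.24, 9.07 and 8.98 in Clk/Clk, 8.63, 8.93 and 9.05 in treated wild type, and 6.80, 7.17 and 6.13 in untreated wild type. The groups stood in the same arrangement with smaller distances: 2.17 (SE 0.21, 4.50-fold) for the drug, -1.05 for nulls against treated wild type, and 1.12 for nulls against untreated wild type, which is 2.17-fold where the brighter probe set gave 42.5-fold.

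Choline kinases catalyse the first step of the CDP-choline route, and the 2 genes for them had different patterns. Chkb (1448448_a_at), the beta isoform, read 8.47, 8.58 and 8.45 in nulls, 11.56, 11.52 and 11.61 in Clk/Clk, 11.21, 10.996 and 11.06 in treated wild type, and 8.58, 8.76 and 8.76 in untreated wild type. The nulls overlapped the untreated mice at the low end, and Clk/Clk stood above treated wild type with no overlap. Chkb rose 5.23-fold with the drug in wild type (2.39, SE 0.079) and fell by 2.59 in nulls relative to treated wild type (6.01-fold). Nulls on the drug differed from untreated wild type by -0.20, which was not called, and Clk/Clk differed from treated wild type by 0.48 (1.39-fold), under the 1.5-fold limit.

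Chkb has a neighbour that bears on how its signal is read. In the GRCm38.p6 gene table, Cpt1b, the muscle-type carnitine palmitoyltransferase of fatty acid oxidation, lies beside Chkb, and the readthrough gene Gm44502 (synonym Chkb-Cpt1b) spans both. Probe set 1418328_at carries all 3 symbols. It read 6.17, 6.07 and 5.98 in nulls, 11.70, 11.51 and 11.42 in Clk/Clk, 10.73, 10.50 and 10.96 in treated wild type, and 5.63, 5.77 and 5.73 in untreated wild type. Its drug difference was 5.02 (SE 0.11, 32.5-fold), with -4.65 in nulls and 0.81 in Clk/Clk relative to treated wild type. Which of the 3 transcripts it measures was not tested, and whether readthrough transcripts also reach 1448448_a_at was not tested.

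Chka, the alpha isoform, was called higher in Clk/Clk and was not called for the drug in wild type. Its brightest probe set (1453582_at) read 8.02, 8.01 and 7.97 in nulls, 10.41, 9.73 and 9.83 in Clk/Clk, 8.63, 8.67 and 8.74 in treated wild type, and 8.63, 8.56 and 8.66 in untreated wild type. Every Clk/Clk mouse was above and every null mouse below all wild-type mice, and the wild-type groups overlapped. The drug difference in wild type was 0.07 (SE 0.14). Relative to treated wild type, Chka rose 2.48-fold in Clk/Clk (1.31, SE 0.14) and fell by 0.68 in nulls (1.60-fold), and nulls were also lower than untreated wild type by -0.61.

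The other Chka probe sets gave the same directions between genotypes, and drug differences of -0.27 and 0.13. In Clk/Clk relative to treated wild type the difference was 0.93 on 1442277_at and 1.75 (3.35-fold) on 1450264_a_at, and in nulls it was -0.67 and -0.38. Averaging the 3 probe sets brought the null difference to -0.58, which is under the 1.5-fold limit, so the null call depends on the probe set. Without Clk/Clk mouse 1, the highest of its group, the Clk/Clk difference was 1.10 and was still called. Macrophage markers differed with genotype too: 3 of 9 were called lower in Clk/Clk and 3 of 9 in nulls, against 6.49% and 8.09% of all genes. The list medians were -0.58 and -0.08. Their summed linear signal ran from 6530.2 to 6989.8 in nulls, 4250.0 to 5348 in Clk/Clk and 6289 to 9447 in treated wild type. Of stellate and blood markers, 2 of 8 and 2 of 6 were called lower in Clk/Clk. In nulls, 3 of 8 hepatocyte markers were called higher, against 5.35% of all genes. Their part in the Chka difference was not tested.

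Etnk1 encodes ethanolamine kinase, which starts the CDP-ethanolamine route. Its brightest probe set (1433514_at) read 9.75, 9.68 and 9.73 in nulls, 9.79, 9.88 and 9.93 in Clk/Clk, 9.83, 9.69 and 9.76 in treated wild type, and 9.76, 9.70 and 9.78 in untreated wild type. The 4 groups lay together, with differences of 0.02 for the drug, -0.04 for nulls and 0.11 for Clk/Clk. A dimmer probe set (1439972_at) read 6.47, 6.55 and 6.70 in nulls, 7.71, 7.51 and 7.30 in Clk/Clk, 8.08, 8.19 and 7.73 in treated wild type, and 6.93, 6.88 and 7.0 in untreated wild type. There the treated wild type stood above both nulls and untreated mice, with a drug difference of 1.06 (SE 0.13, 2.09-fold) and -1.43 in nulls. Clk/Clk also lay below treated wild type there, by -0.49 without overlap, the opposite sign to the brightest probe set. The dim probe set 1430996_at had the same sign, at -0.61. Whether the 2 probe sets read different transcript ends was not tested.

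**Figure D2:**
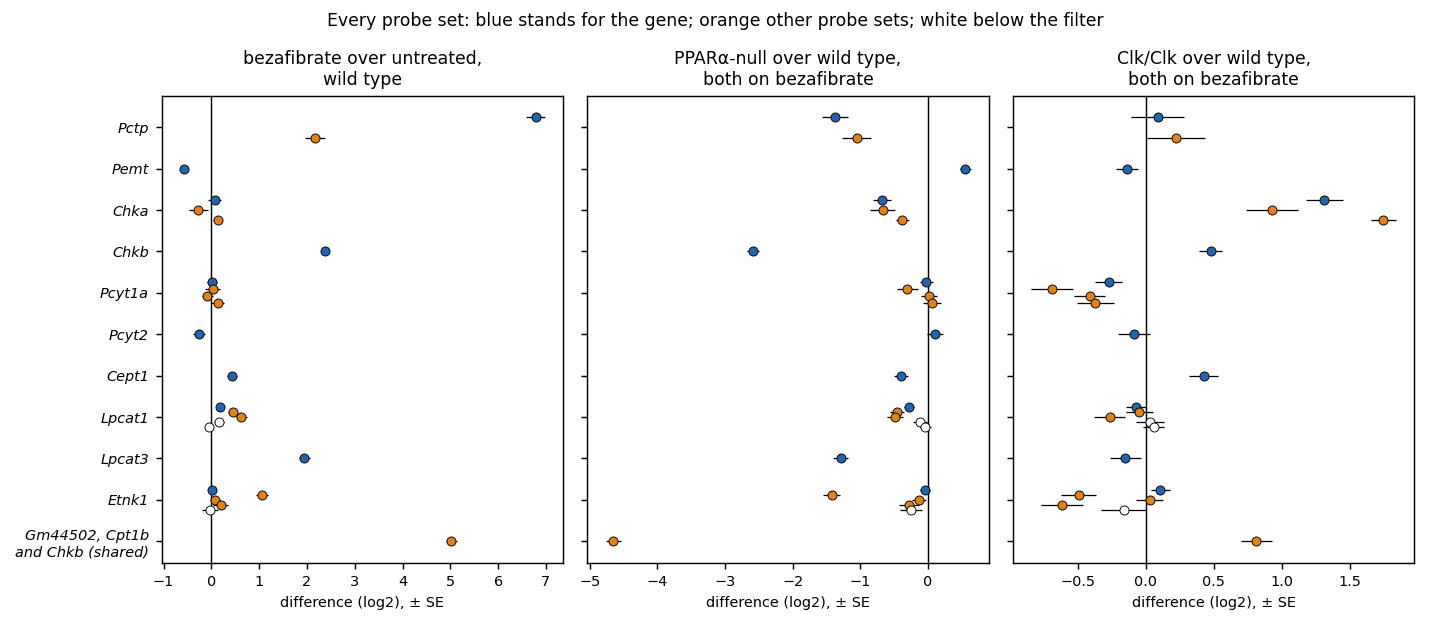
Log2 differences with standard errors for each probe set of the members in the 3 main comparisons. The Pctp, Chka and Pcyt1a probe sets keep their direction where the group difference is large, and Etnk1 differs between probe sets.

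The CTP-dependent transferases activate phosphocholine (Pcyt1a) and phosphoethanolamine (Pcyt2), and the Pcyt1a product is regarded as rate-limiting for the CDP-choline route. Pcyt1a (1438011_at) read 9.82, 9.84 and 9.72 in nulls, 9.59, 9.69 and 9.35 in Clk/Clk, 9.91, 9.79 and 9.76 in treated wild type, and 9.93, 9.82 and 9.68 in untreated wild type. The Clk/Clk mice lay below all treated wild-type mice, by -0.27 (SE 0.097), which was not called, and they overlapped the untreated mice. The other 3 probe sets of Pcyt1a were lower in Clk/Clk by -0.69, -0.41 and -0.37, each without overlap with treated wild type. The drug difference in wild type was 0.01 on the brightest probe set and between -0.08 and 0.13 on the others. The null difference was -0.03 on the brightest probe set, and -0.30 on 1421957_a_at, where nulls lay below treated wild type without overlap. On the remaining 2 probe sets it was 0.015 and 0.05.

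Pcyt2 read 10.94, 11.33 and 11.14 in nulls, 10.84, 10.85 and 11.16 in Clk/Clk, 10.85, 11.13 and 11.13 in treated wild type, and 11.24, 11.33 and 11.32 in untreated wild type. The untreated mice were the highest group, above treated wild type without overlap, by a drug difference of -0.26 (SE 0.12) that was not called. The null difference was 0.10 and the Clk/Clk difference -0.09.

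Cept1, the choline and ethanolamine phosphotransferase, completes both CDP routes. It read 10.77, 11.15 and 10.98 in nulls, 11.77, 11.73 and 11.87 in Clk/Clk, 11.36, 11.24 and 11.49 in treated wild type, and 11.04, 10.84 and 10.92 in untreated wild type. Clk/Clk was the highest group, treated wild type stood between, and nulls overlapped the untreated mice. The differences were 0.43 (SE 0.10) for the drug, -0.40 for nulls and 0.42 for Clk/Clk, none of them called, each with groups that did not overlap. Clk/Clk on the drug was called higher than untreated wild type, by 0.86 (1.81-fold).

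Pemt, the methyltransferase of the second route, was lower in treated than in untreated wild type, without being called. It read 11.58, 11.61 and 11.65 in nulls, 10.92, 10.96 and 10.90 in Clk/Clk, 10.89, 11.13 and 11.17 in treated wild type, and 11.65, 11.61 and 11.67 in untreated wild type. Nulls overlapped the untreated mice at the high end, and Clk/Clk and treated wild type overlapped at the low end. The drug difference was -0.58 (SE 0.075), a 1.495-fold change that fell just short of the limit, and the null difference was 0.55. Both were uncalled, and each call turned with single mice: the drug difference was -0.61 without treated wild-type mouse 2, -0.63 without mouse 3 and -0.599 without untreated mouse 2, all called. The null difference was 0.60 without treated wild-type mouse 3, also called. Relative to untreated wild type, Pemt was lower by 0.72 in Clk/Clk on the drug.

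Lpcat3 encodes the lysophospholipid acyltransferase that adds polyunsaturated chains to phosphatidylcholine. It read 11.37, 11.37 and 11.33 in nulls, 12.48, 12.39 and 12.63 in Clk/Clk, 12.78, 12.54 and 12.63 in treated wild type, and 10.61, 10.98 and 10.53 in untreated wild type. The nulls formed a level of their own between untreated and treated wild type, and Clk/Clk overlapped treated wild type. Lpcat3 rose 3.85-fold with the drug (1.94, SE 0.11) and fell by 1.29 in nulls relative to treated wild type (2.44-fold). Nulls on the drug were higher than untreated wild type by 0.66 (1.57-fold), which is 33.7% of the drug difference in wild type.

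Lpcat1, an acyltransferase known for saturated phosphatidylcholine in lung surfactant, was dim. Its brightest probe set read 6.98, 6.84 and 6.90 in nulls, 7.15, 7.08 and 7.13 in Clk/Clk, 7.28, 7.16 and 7.14 in treated wild type, and 7.04, 6.94 and 7.06 in untreated wild type. Treated wild type was above untreated mice and nulls without overlap, by 0.18 for the drug and -0.29 for nulls, with neither called. Probe sets 1424459_at and 1451359_at gave drug differences of 0.44 and 0.62 and null differences of -0.46 and -0.49, and 2 further probe sets stayed under the filter level.

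**Figure D3:**
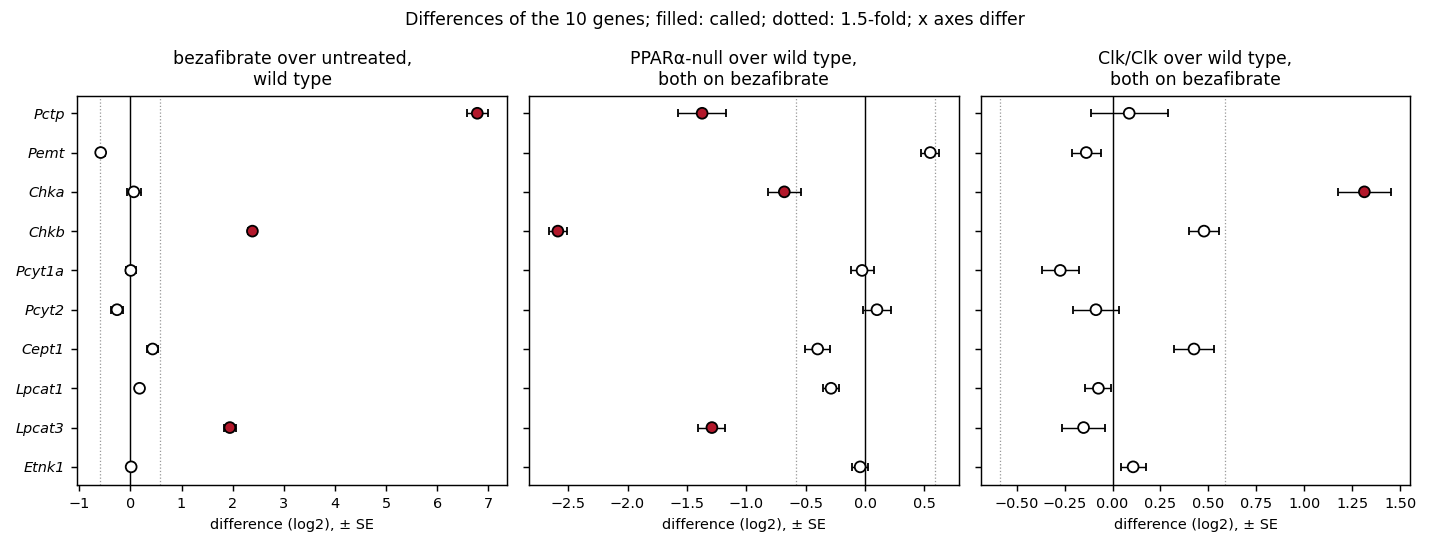
Log2 differences (points, with standard errors) of the 10 members for treated against untreated wild type, PPARα-null against treated wild type, and Clk/Clk against treated wild type, with called genes filled. Pctp, Chkb and Lpcat3 lie to the right for the drug and to the left for the nulls, and Chka is the member farthest right for Clk/Clk.

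Set against untreated wild type, the mutants on the drug differed between members. Of the 10 members, 2 were called higher (Pctp and Lpcat3) and 1 lower (Chka) in nulls, against 3.96% and 2.69% of all genes. In Clk/Clk, 5 were called higher (Pctp, Chka, Chkb, Cept1 and Lpcat3) and 1 lower (Pemt), against 10.6% and 8.82%. Between the mutants, 5 members were called higher and 1 lower in Clk/Clk than in nulls, against 7.43% and 7.78%. Counted by groups that do not overlap, treated wild type stood higher than untreated for 5 members and lower for 2, against 30.2% and 26.1% of all genes. Nulls stood higher than treated wild type for 1 and lower for 6, against 24.3% and 24.3%. Clk/Clk stood higher than treated wild type for 3 and lower for 1, against 21.2% and 21.1%. These comparisons share arrays.

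The 8 tested genes whose 12-array profile lay nearest to Pctp, by root mean square distance after centring each gene, were Pdk4, Cyp4a14, Vnn1, Hsd17b13, Cd36, Acot2, Acot1 and Mogat1. Distances ran from 0.76 to 1.29 log2 units. Pdk4, a kinase that restrains pyruvate oxidation, averaged 10.02 in nulls, 13.28 in Clk/Clk, 13.12 in treated wild type and 5.80 in untreated wild type. Cyp4a14, a fatty acid hydroxylase, averaged 13.02, 14.34, 14.25 and 9.17 in the same groups. Hsd17b13 averaged 12.86, 13.44, 12.73 and 8.44, and differed from Pctp in the mutants. Relative to treated wild type it was 0.13 higher in nulls, not called, and 0.70 higher in Clk/Clk, called. The other genes named here were called lower in nulls. Null mouse 1 was the lowest of its group for 7 of the 8 genes, as it was for Pctp, and untreated mouse 3 the highest of its group for 5 of the 8, as it was for Pctp. The distance itself uses these values.

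The pathway around the members was read from 7 lists of genes, drawn up from general knowledge with earlier results of these data known. One list joined other genes of the CDP routes with genes that make or use phosphatidylserine (Ptdss1, Ptdss2 and Pisd). In it, 6 of 8 genes were tested. Of these, 2 were called higher for the drug in wild type and lower in nulls, against 12.8% and 8.09% of all genes. One was Ptdss2, which makes phosphatidylserine (drug 0.87, SE 0.084, limma adjusted p = 8.41e-06), and the other Selenoi, an ethanolamine phosphotransferase (0.90, SE 0.11, adjusted p = 3.52e-05). Their null differences were -0.70 and -0.63. These calls rest on probe sets whose suffix marks possible cross-hybridisation or shared transcripts: with such probe sets left out, Ptdss2 read -0.34 for the drug and 0.11 for nulls, and Selenoi 0.35 and -0.23. Averaging each gene's probe sets also removed these calls. Ptdss2 then read 0.45 for the drug and -0.33 for nulls, and Selenoi 0.25 and -0.35. The Selenoi difference in nulls lost its call when null mouse 1 was left out (-0.58), and likewise treated wild-type mouse 3 (-0.52). Chpt1, the choline phosphotransferase, rose in Clk/Clk by 0.61 (SE 0.10, adjusted p = 0.00183), and was not called without Clk/Clk mouse 2 (0.55) or treated wild-type mouse 2 (0.50).

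Choline and ethanolamine transporters were called in 2 of 6 tested genes with the drug, both higher, against 12.8% of all genes. In nulls 3 of 6 were called, all lower, against 8.09%. The choline transporter-like Slc44a3 averaged 7.50 in nulls, 8.47 in treated wild type and 6.79 in untreated wild type, a drug difference of 1.68 (SE 0.15, limma adjusted p = 4.57e-06). Flvcr1, a choline transporter, rose by 0.93 with the drug (adjusted p = 9.61e-06) and fell by 1.09 in nulls (adjusted p = 5.69e-06), and averaging its probe sets brought both under the limit, at 0.49 and -0.55. Slc44a1 fell by 0.78 in nulls (adjusted p = 4.8e-05). The list's median difference was 0.41 for the drug and -0.57 for nulls.

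Among other lysophospholipid acyltransferases, 1 of 7 tested genes rose with the drug and 1 fell in nulls, against 12.8% and 8.09% of all genes. In both cases it was Lclat1 (0.94 and -0.85, limma adjusted p = 3.69e-05 and 0.000153). Among 21 tested genes of phosphatidylcholine breakdown and sphingomyelin synthesis, 4 rose and 3 fell with the drug, against 12.8% and 7.77% of all genes. The phospholipase Plaat3 rose by 1.03 with it (adjusted p = 0.000116) and fell by 1.80 in nulls (adjusted p = 3.82e-06), and Lcat, which esterifies plasma cholesterol with chains from phosphatidylcholine, fell by 0.78 (adjusted p = 1.61e-05). Pla2g6 rose by 1.74 with the drug (adjusted p = 9.08e-08), and read -0.09 with suffix probe sets left out. Pla2g7, the phospholipase that degrades platelet-activating factor, rose by 1.63 with the drug and fell by 1.56 in nulls (SE 0.32 for each). Its treated wild-type mice were spread widely, at 9.39, 7.62 and 8.25. Pla2g12a was higher than in treated wild type by 0.91 in nulls and 0.97 in Clk/Clk. The lysosomal phospholipase Pla2g15 rose by 0.63 in nulls, and was not called without treated wild-type mouse 1 (0.52) or mouse 3 (0.55). In Clk/Clk, the lysophospholipase Pnpla7 fell by 0.94, and the sphingomyelin synthase Sgms1 rose by 0.78 (0.43 and not called with its probe sets averaged).

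Of 22 tested START-domain, transfer and export genes, 4 rose and 3 fell with the drug, against 12.8% and 7.77% of all genes. Abcb4, which moves phosphatidylcholine into bile, read 10.65, 10.82 and 10.81 in nulls, 11.63, 11.92 and 11.77 in Clk/Clk, 11.36, 11.71 and 11.73 in treated wild type, and 10.20, 10.32 and 10.20 in untreated wild type. The treated wild type and Clk/Clk were above both other groups. Abcb4 rose by 1.36 with the drug (SE 0.11, limma adjusted p = 2.08e-06) and fell by 0.84 in nulls (adjusted p = 0.000143). The plasma phospholipid transfer protein Pltp rose by 3.45 with the drug (adjusted p = 9.79e-07), fell by 2.35 in nulls (adjusted p = 3.54e-05) and fell by 1.18 in Clk/Clk (adjusted p = 0.00643). Abcb11, the bile salt pump, was higher than in treated wild type in both mutants, by 0.95 in nulls (adjusted p = 0.000145) and 0.82 in Clk/Clk (adjusted p = 0.00092). Acot12, an acetyl-CoA hydrolase with a START domain, rose by 0.75 with the drug and fell by 0.70 in nulls. The phosphatidylinositol transfer protein gene Pitpnc1 fell by 0.71 with the drug and rose by 0.80 in nulls. In Clk/Clk, the glycolipid transfer protein gene Gltp fell by 0.91, and Stard4, a sterol carrier, fell by 0.81, a call lost without Clk/Clk mouse 2 (-0.65). Acot13, the thioesterase partner of PCTP (named after its values were seen), averaged 11.44 in nulls, 11.20 in Clk/Clk, 11.16 in treated wild type and 10.52 in untreated wild type, and its drug difference of 0.63 (adjusted p = 0.0374) was not called, at 0.48 to 0.56, without treated mouse 2 or 3 or untreated mouse 1 or 3.

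Pemt draws methyl groups from S-adenosylmethionine, and among 11 tested genes of methyl donors and choline oxidation, 6 fell and 1 rose with the drug, against 7.77% and 12.8% of all genes. The one that rose was Chdh, choline dehydrogenase, by 0.95, and 4 were not called. The list's median difference was -0.86, against 0.01 over all genes. In nulls relative to treated wild type 6 were higher and 2 lower, against 5.35% and 8.09% of all genes. In Clk/Clk 4 were higher and 0 lower, against 2.64% and 6.49%. Gnmt, which consumes S-adenosylmethionine, read 14.01, 13.90 and 13.72 in nulls, 13.46, 13.48 and 13.53 in Clk/Clk, 12.21, 12.41 and 12.68 in treated wild type, and 13.95, 14.004 and 14.04 in untreated wild type. The treated wild-type mice were the lowest for it, with a drug difference of -1.57 (SE 0.11, limma adjusted p = 7.82e-07) and a Clk/Clk difference of 1.06 (adjusted p = 0.000119). Sardh, a sarcosine dehydrogenase, fell by 1.75 with the drug (adjusted p = 2.63e-07), and Ahcy, which clears S-adenosylhomocysteine, fell by 0.86 (adjusted p = 1.54e-05). Bhmt, the betaine-homocysteine methyltransferase, averaged 13.41 in nulls, 14.06 in Clk/Clk, 11.83 in treated wild type and 14.16 in untreated wild type. It fell by 2.33 with the drug in wild type (adjusted p = 3.69e-05), and relative to treated wild type it was higher by 1.58 in nulls (adjusted p = 0.00109) and by 2.23 in Clk/Clk (SE 0.28, adjusted p = 0.00033). Its relative Bhmt2 fell by 0.94 with the drug and was higher in nulls by 0.82, a call that was lost with suffix probe sets left out (0.55). Of hepatocyte markers, 4 of 8 were called lower with the drug, and their part in these differences was not tested.

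**Figure D4:**
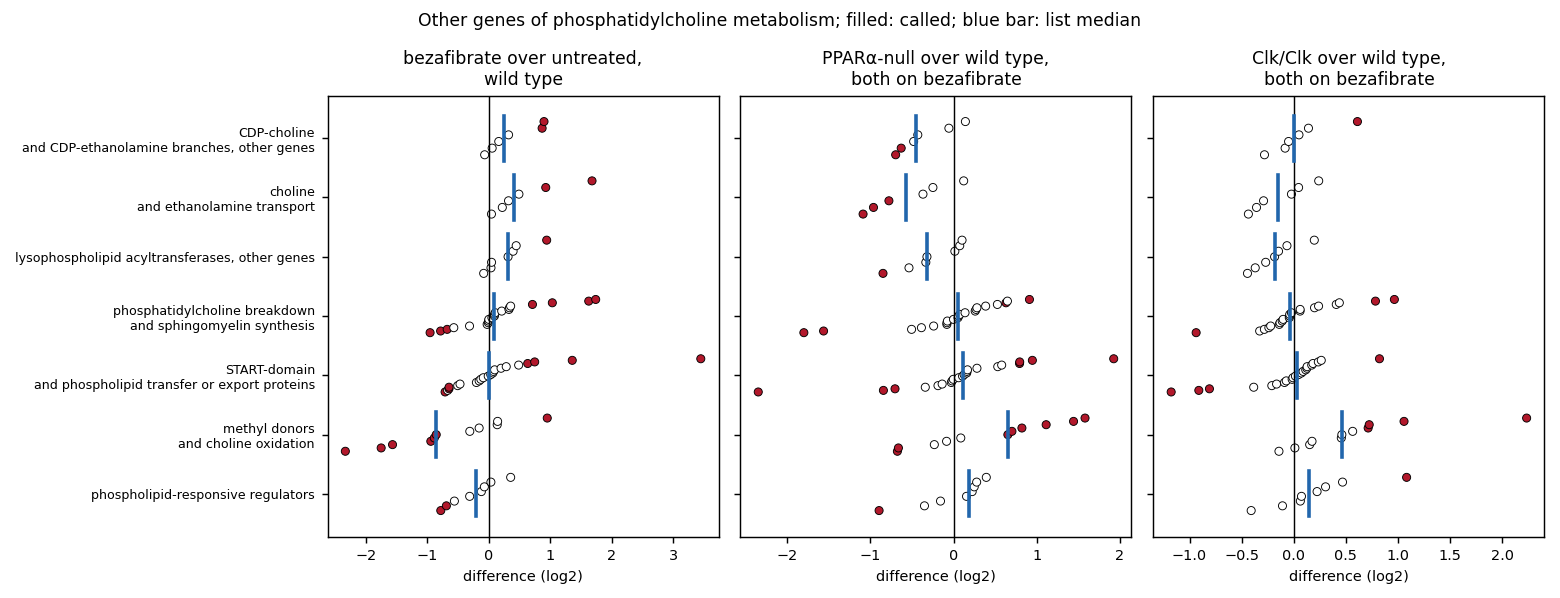
Log2 differences of tested genes in the 7 pathway lists for the 3 main comparisons, 1 point per gene, with called genes marked. Methyl donor and choline oxidation genes lie mostly below 0 for the drug, at a median of -0.86, and choline and ethanolamine transporters mostly above it, at 0.41.

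Of 8 tested regulators, 0 rose and 2 fell with the drug, against 12.8% and 7.77% of all genes. Hnf4a fell by 0.69 (limma adjusted p = 7.3e-05), and read -0.48 without a call where suffix probe sets were left out. Ppara fell by 0.78 (adjusted p = 0.000831). Clock rose by 1.08 in Clk/Clk (adjusted p = 0.000826).

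Markers of the liver's cell types also differed between groups, and their part in the members' differences was not tested. Only called markers are named below. The shares of all genes called higher and lower were 12.8% and 7.77% for the drug and 5.35% and 8.09% for nulls. For Clk/Clk they were 2.64% and 6.49%. List medians for the drug, nulls and Clk/Clk were -0.52, 0.23 and 0.19 for hepatocyte markers. For macrophage markers they were 0.15, -0.08 and -0.58. Of 8 hepatocyte markers, 4 fell with the drug (Cps1 at -1.24, Hpd at -0.97, Tat at -1.64 and Ass1 at -1.28), 3 rose in nulls relative to treated wild type (Cps1 0.98, Hpd 0.72 and Tat 0.84) and 1 rose in Clk/Clk (Cps1 0.87). Of 9 macrophage markers, Cd68 rose with the drug by 0.90, 3 fell in nulls (Cd68 at -0.68, Marco at -0.76 and Lyz2 at -0.91) and 3 fell in Clk/Clk (Clec4f at -0.85, Cd5l at -0.82 and Cd68 at -0.72). Each macrophage call in nulls was lost without treated wild-type mouse 1, at -0.47 for Cd68, -0.70 for Marco and -0.53 for Lyz2, and so was the Cd68 call in Clk/Clk, at -0.51.

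Of 8 stellate markers, 3 fell with the drug (Rgs5 at -0.85, Reln at -0.99 and Hand2 at -1.16), 1 in nulls (Lrat at -0.61) and 2 in Clk/Clk (Col3a1 at -1.33 and Col1a2 at -0.79). Of 7 sinusoidal endothelial markers, Stab2 (-0.86) and Clec4g (-0.69) fell with the drug, and Stab2 rose in nulls by 0.83. Of 3 tested cholangiocyte markers, Sox9 rose with the drug by 0.82 and fell in nulls by 0.69. Of 6 tested blood markers, Alas2 fell with the drug by 0.77, S100a8 rose in nulls by 1.84, and Alas2 (-1.57) and Ptprc (-0.87) fell in Clk/Clk. List medians for the drug, nulls and Clk/Clk were 0.04, -0.20 and -0.03 for stellate and -0.19, 0.15 and -0.04 for endothelial markers. They were -0.01, 0.20 and -0.10 for cholangiocyte and 0.17, -0.08 and -0.25 for blood markers. The drug medians of stellate, cholangiocyte and blood markers had the opposite sign to the named markers. So did the null medians of cholangiocyte and blood markers. Without treated wild-type mouse 1, Clec4g for the drug (-0.46) and Ptprc in Clk/Clk (-0.44) were not called. Without treated wild-type mouse 3, Sox9 (-0.57) and Lrat (-0.44) in nulls were not called. Alas2 for the drug was not called without untreated mouse 2 (-0.56). The calls of Alas2 for the drug, Lrat in nulls, Ptprc in Clk/Clk, Marco and Lyz2 in nulls, and Cd68 in both mutants were also lost when certain other single mice were left out.
Of 6 genes of fat or pancreas carry-over, Adipoq, Lep, Cfd, Pnlip and Cpa1 did not pass the filter on low values. The one that did, the elastase Cela1, fell by 1.73 with the drug (limma adjusted p = 9.26e-07), with a linear signal of 339 to 391 in treated wild type against 1154 to 1223 in untreated wild type, and it was not called in either mutant relative to treated wild type.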

How the data were processed

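Log2 expression values per probe set were deposited by the authors, who used RMA per the submitters' processing notes, a method that corrects background, equalises arrays and summarises probes. Its version and settings are not given in the sources used here. RNA (250 ng per liver) was labelled with a 3' kit per the labels' protocols. Array controls (64 of 45101 probe sets) were left out. Of the other 45037, the platform annotation gave 1 symbol to 34945, several to 932 and none to 9160, and 204 of the symbols had no match in the GRCm38.p6 gene table, which served for names and neighbours only.

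A probe set was kept if 3 or more arrays had it at or above the array's 40th percentile, which lay at 4.87 to 4.92. The brightest kept probe set stood for its gene, which gave 13598 genes and 21 of the 24 member probe sets. One linear model with 4 group means covered the 12 arrays (limma 3.58.1 under R 4.3.3, with lmFit, eBayes and 8 residual degrees of freedom), and the pipeline was tested on simulated data. On arrays no depth exists: precision is limited by 3 mice per group and, for dim probe sets, by signal near background. The labels give no array batch. Each array is 1 mouse.

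The members and the gene lists were chosen with earlier results of these data known. Genes are named by a rule: all members with all their single-symbol probe sets, from each list and main comparison up to 4 called genes with the smallest adjusted p, Ppara, Clock, and the 8 genes nearest to Pctp. Acot13, Chdh, and Bhmt and Abcb11 in the comparisons the rule did not select them for, were added after their values were seen. Alternatives changed the filter, the probe sets, the normalization, the variance model, the samples and the replicate block, and the other probe sets of members were added after seeing the data.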

Additional observations from a re-analysis of the deposited data

Results flagged for a closer look

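Probe sets that entered no gene comparison carried differences between treated and untreated wild type. The Etnk1 probe set 1439972_at differed by 1.06 log2 units, while the brightest Etnk1 probe set differed by 0.02. The Lpcat1 probe set 1451359_at differed by 0.62, against 0.18 on the brightest Lpcat1 probe set, and read 5.10 in nulls, 5.32 in Clk/Clk, 5.59 in treated wild type and 4.97 in untreated wild type, near the filter level. Probe set 1418328_at, shared by Gm44502, Cpt1b and Chkb, differed by 5.02, against 2.39 on the Chkb probe set used.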

How the results depend on the processing

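Counts of called genes, members and other pathway genes pooled over the lists stayed within 1.5 times the reported count under the alternatives run. No called member difference changed sign. Some single lists moved further. The list of other CDP and phosphatidylserine genes went from 2 called to 0 for the drug and for nulls, with probe sets averaged or suffix probe sets left out. Breakdown and sphingomyelin genes went from 4 higher and 3 lower for the drug to 3 and 1 with probe sets averaged. With 1 mouse left out, called genes numbered 2730 to 2908 for the drug, 1632 to 1939 for nulls and 1071 to 1401 for Clk/Clk, called members 3 to 4, 4 to 5 and 1 to 1, and called pathway genes 26 to 28, 23 to 27 and 11 to 15. In all, 441 member differences were recomputed under other settings of probe set choice, filter, model or samples. Of these, 428 moved by less than 1 residual SD and 13 by more. The filter, variance-prior and replicate-block settings, and the fit of only the 2 groups compared, leave a member's difference of group means unchanged. Many of the 428 were therefore fixed in advance, and the count does not measure stability. Of 42 differences taken from other probe sets, 31 moved by more. Differences that were not called changed sign in 10 of the 441 and 11 of the 42. Among these, Etnk1 in Clk/Clk read -0.24 with its probe sets averaged and -0.49 on 1439972_at, against 0.11, and Chka for the drug read -0.27 on 1442277_at, against 0.07. With suffix probe sets left out, Pemt, Chkb and Pcyt2 were not tested, so 2 members were called for the drug and 3 in nulls, Pla2g6 read -0.09 for the drug, and Ptdss2 read -0.34 for the drug and 0.11 in nulls, each reversed from the reported direction. Of 2364 differences of 53 named list genes, 70 lost and 27 gained a call. The fit with the replicate number as a block called 2801, 1824 and 1253 genes and 3, 4 and 1 members. Whether equal replicate numbers pair mice was not settled. Deviations from group means correlated at -0.092 to 0.13 for the same number and -0.16 to 0.13 for different numbers. With 3 mice per group, these overlapping ranges cannot decide it. Dim probe sets, such as Pctp in untreated mice, limit exact fold changes.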
